A study of Mus musculus with 6 samples.

Results

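The 77 cytosolic ribosomal protein genes were described in 6 SMART-seq libraries of regulatory T cells (Treg) of the mouse. Treg are CD4 lymphocytes that depend on the factor Foxp3 and hold immune responses in check. SMART-seq copies poly(A) RNA into cDNA from an oligo-dT primer and amplifies it by PCR. The rule that picks the genes reads only their names. A symbol was taken when it consisted of Rpl or Rps, a number and at most the ending a, a1 or x, and Rplp0, Rplp1, Rplp2 and Rpsa were added, which gave 77 of the 24421 genes listed. By place, 43 belong to the large subunit outside the P stalk, 31 to the small subunit and 3 to the P stalk. The P stalk is part of the large subunit but is counted apart throughout, so values for large-subunit genes leave it out. All 77 reached an FPKM (sequenced fragments per transcript length and per mapped fragment) of at least 1 in at least 2 libraries, the requirement for testing that 10436 genes met.

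Every library came from wild-type Treg of spleen and lymph nodes. The 3 groups of 2 libraries each were Treg stimulated in the presence of iBP, Treg stimulated without it, and unstimulated Treg. The study's design names iBP as an inhibitor of H2AK119ub1, the ubiquitin mark that Polycomb repressive complex 1 sets on histone H2A. No library had iBP without stimulation, and the labels give neither the kind and length of the stimulus nor the dose of iBP. Nor do they state that the replicates of a group are from different mice or cultures. The p-values therefore reflect only how far these particular samples differ, and that spread may be technical. The Kdm2b conditional knockout that the design also mentions was not analysed here.

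The ribosome carries a single copy of nearly every ribosomal protein, so a cell needs these proteins in equal numbers although each is made from its own gene. Their mRNAs typically begin with a C followed by a run of pyrimidines, the terminal oligopyrimidine (TOP) tract, through which Larp1 and the kinase mTOR control their translation. In lymphocytes that leave rest, ribosome production goes up, with the transcription factor Myc among its drivers, and much of the control of ribosomal proteins acts on translation, which FPKM does not measure. Their abundant mRNAs have been copied back into the genome many times as processed pseudogenes, intronless copies that can differ from the parent by a few bases.

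The annotated start regions of 5 of the genes are printed because 3 of them, Rpl26, Rps27 and Rps2, depart from all other members in the results, while Rps6 and Rpl11 follow the common pattern. Each runs from 60 bases before to 30 bases after the RefSeq start (assembly GRCm38.p6), and the capitals mark the longest run of C and T that begins with C from 20 bases before the start onwards, as far as the printed window reaches. Their positions are chr11:68901506-68901595 on the plus strand for Rpl26, chr3:90213619-90213708 on the minus strand for Rps27, chr17:24720003-24720092 on the plus strand for Rps2, chr4:86857338-86857427 on the minus strand for Rps6 and chr4:136053364-136053453 on the minus strand for Rpl11.
Rpl26: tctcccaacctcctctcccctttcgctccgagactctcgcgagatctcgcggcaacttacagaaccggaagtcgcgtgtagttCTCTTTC
Rps27: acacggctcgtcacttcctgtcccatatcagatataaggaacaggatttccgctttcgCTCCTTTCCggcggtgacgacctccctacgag
Rps2: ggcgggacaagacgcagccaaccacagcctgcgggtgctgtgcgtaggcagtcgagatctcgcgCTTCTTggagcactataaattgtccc
Rps6: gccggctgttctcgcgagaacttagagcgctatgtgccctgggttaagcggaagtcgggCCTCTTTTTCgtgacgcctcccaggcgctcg
Rpl11: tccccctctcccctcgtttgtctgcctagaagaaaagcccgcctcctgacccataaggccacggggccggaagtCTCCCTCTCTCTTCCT

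RefSeq start regions were at hand for 57 of the 77 genes, in 67 windows of 250 bases before and 50 bases after a start. A run of at least 8 pyrimidines beginning with C lay on the sense strand within 50 bases of the start in 54 of the 67 windows (80.6%), against 28.8% of all 32851 windows of mouse genes. The letters CCGGAAG, a core that ETS-family factors such as Gabpa recognise, stood on either strand in 25 of 67 windows (37.3%), against 8.86% of all windows. It can overlap a pyrimidine run when it lies on the minus strand. These matches describe the windows and do not show that a factor binds there. The printed windows of Rpl26 and Rpl11 contain CCGGAAG, and those of Rps27, Rps2 and Rps6 do not.

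Ribosomal protein genes also share what lies inside them. By the GENCODE M21 annotation, 30 of the 77 (39%) hold at least 1 small nucleolar RNA gene within their borders, against 1.04% of the other 19825 protein-coding genes listed. Rpl4 holds 5 of these and Rpl13a holds 4. The members are spread over 19 chromosomes, with 14 of them on chromosome 7. Nearly identical relatives are the rule: 74 of the 77 coding sequences match at least 1 other annotated locus with at least 95% identity over at least 90% of their length, 559 loci in all, with a median of 5 per gene and a highest count of 56 for Rpl21. For 14 members such a relative has a row of its own among the listed genes (15 rows).

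Levels differed widely between genes whose products are needed in equal number. On the length-scaled FPKM scale, means over the 6 libraries ran from 3.45 for Rps29 to 3136 for Rpl4, a 908-fold range with a median of 253. Rpl4 and Rplp0, the base of the P stalk, led, followed by the small-subunit genes Rps9, Rps3a1 and Rps14. Together these 5 genes made up 31.8% of the FPKM of all 77. Rps29, Rpl38, Rpl39 and Rpl31 were among the lowest, and 12 members stayed under a mean of 30 FPKM. How reads shared with nearly identical loci were assigned is not given, and their part in these levels was not tested. Large-subunit genes had a median of 235 FPKM, small-subunit genes of 282 FPKM.

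Rpl4 was the highest member in all 6 libraries, and Rps29 the lowest in all but stimulated replicate 1, where Rpl26 and Rpl38 were lower. Rpl4 had 3194 and 3301 FPKM with iBP, 3235 and 3141 FPKM in stimulated Treg and 2942 and 3001 FPKM in unstimulated Treg. Rplp0 had 2246 and 2414 FPKM with iBP, 2469 and 2032 FPKM in stimulated Treg and 2206 and 2257 FPKM in unstimulated Treg. Rps29 had 2.52 and 3.89 FPKM with iBP, 4.72 and 3.69 FPKM in stimulated Treg and 2.66 and 3.24 FPKM in unstimulated Treg. Rpl38, which in mice is known for a role in patterning the skeleton, had 3.80 and 5.01 FPKM with iBP, 4.26 and 3.98 FPKM in stimulated Treg and 4.49 and 5.07 FPKM in unstimulated Treg. In Rpl4 the unstimulated values were the lowest, and in Rplp0 the groups overlapped. The stimulated libraries lay above the unstimulated ones in Rps29 and below them in Rpl38, and in both genes the iBP libraries overlapped with both other groups.

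Genes with longer coding sequences had higher FPKM. FPKM is scaled by transcript length, which can far exceed the coding length, and no relation with transcript length was computed. The median level was 63.8 FPKM for the 9 genes with up to 300 coding bases, 163 FPKM for the 27 above that and up to 450, 311 FPKM for the 19 above that and up to 600, and 478 FPKM for the 22 above 600. Across the 77 genes the rank correlation (Spearman) of mean FPKM with coding length was 0.46, a description over genes that share the same libraries. With the number of nearly identical loci it was 0.016, which does not show how reads shared with such loci were assigned. Rpl41, with only 75 coding bases, was an exception at 311 FPKM.

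**Figure D1:**
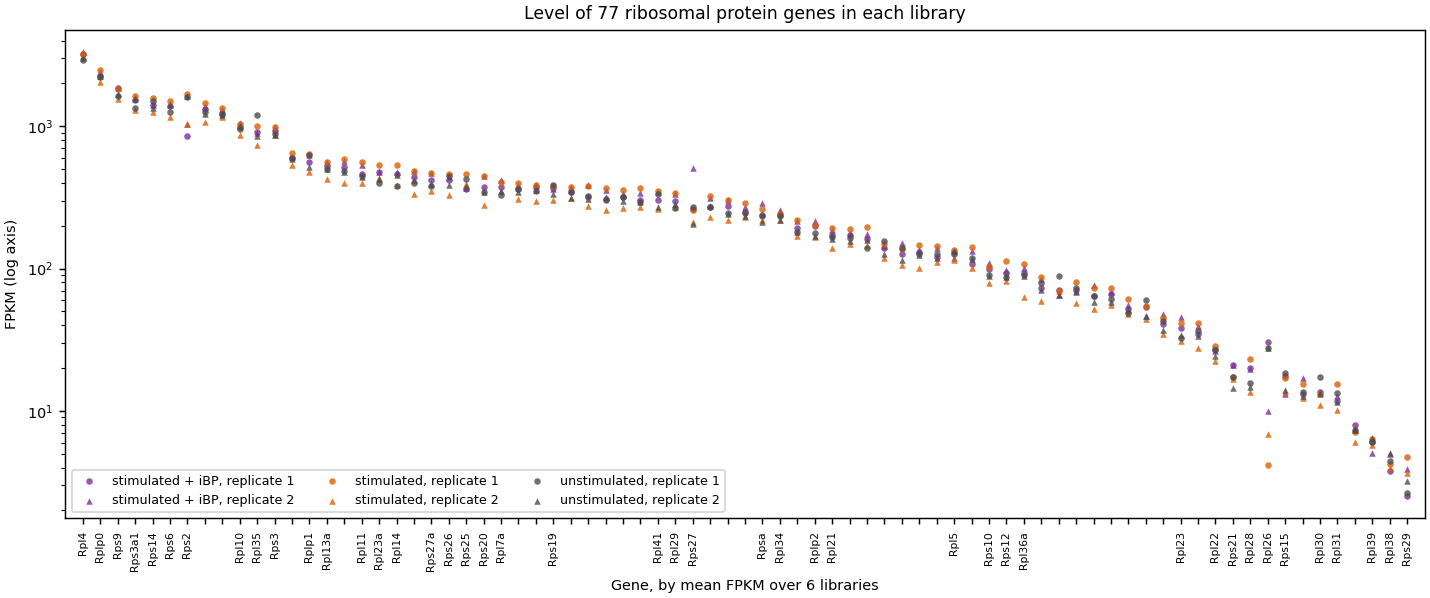
FPKM (log axis) of each of the 77 genes in each of the 6 libraries, with genes along the horizontal axis by mean level and names shown for those described; circles are replicate 1 and triangles replicate 2. Mean levels fall from 3136 FPKM for Rpl4 to 3.45 FPKM for Rps29, and for most genes the 6 libraries lie close together compared with the differences between genes, while Rpl26 and Rps27 spread out.

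Summed over the 77 genes, ribosomal protein mRNA took a similar part of all FPKM in the 3 groups. The share was 8.56% and 9.17% with iBP, 9.29% and 7.31% in stimulated Treg, and 8.19% and 8.21% in unstimulated Treg. As group values this is 8.86% ± 0.43 with iBP, 8.30% ± 1.40 in stimulated Treg and 8.20% ± 0.020 in unstimulated Treg (SD, n = 2 each). The 2 stimulated libraries held the highest and the lowest share and so spanned the other groups, while both iBP libraries lay above both unstimulated ones. With 2 libraries a group, an exact permutation test cannot give a two-sided p below 0.333, and none was run. In bulk RNA, fewer cells of a type and less RNA per cell cannot be told apart.

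The members varied most between the 2 stimulated libraries. Relative to its own mean over the 6 libraries, the median member stood at 0.011 and 0.116 (log2) with iBP, at 0.163 and -0.219 in stimulated Treg, and at -0.022 and -0.077 in unstimulated Treg. Stimulated replicate 1 held the highest value of 49 of the 77 genes and stimulated replicate 2 the lowest value of 58. Of the 77 genes, 41 (53.2%) had their highest value in the stimulated replicate 1 library and their lowest in replicate 2, against 2.48% of the 10436 genes tested. In all, 76 of 77 were higher in stimulated replicate 1 than in replicate 2, the exception being Rpl26, against 44.1% of all genes tested.

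The gap between the stimulated libraries had a median of 0.37 over the members (log2, quartiles 0.28 and 0.47), which is 1.29-fold, against -0.05 over all genes tested. Between the iBP libraries the members' median gap was -0.10, and between the unstimulated libraries it was 0.03. Across members the stimulated gap varied little with mean level (Spearman 0.048) or coding length (Spearman -0.17, 77 genes in both). This gap is larger than the median member difference of any comparison between groups given below.

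**Figure D2:**
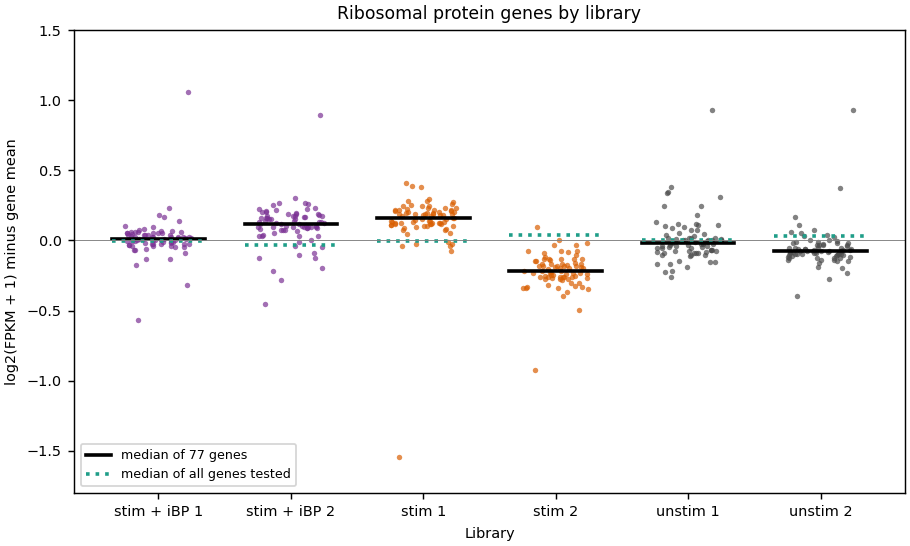
Each point is 1 of the 77 genes in 1 library, as log2(FPKM + 1) minus the gene's mean over the 6 libraries; the black bar is the median of the 77 genes and the dotted bar that of all genes tested. The members' medians lie at 0.163 in stimulated replicate 1 and at -0.219 in stimulated replicate 2, on either side of the 4 other libraries.

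For 9 ribosomal protein genes that the name rule leaves out, the median stood at 0.175 in stimulated replicate 1 and at -0.099 in replicate 2. Fau, which encodes a ribosomal protein fused to a ubiquitin-like one, had 388 and 421 FPKM with iBP, 436 and 277 FPKM in stimulated Treg and 403 and 324 FPKM in unstimulated Treg. Stimulated replicate 1 was its highest library and replicate 2 its lowest. The median of 76 mitochondrial ribosomal protein genes, whose products build the separate ribosome of mitochondria, lay at -0.005 in stimulated replicate 1 and at 0.034 in replicate 2. For 20 other genes known for RNAs with a TOP tract, such as Eef1a1 and Tpt1, the medians were 0.092 and -0.026.

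Marker genes of other cell types were present in every library, and several sets differed between the stimulated libraries. Treg markers (4 of 4 tested) summed to 630 and 622 FPKM with iBP, 593 and 635 FPKM in stimulated Treg and 381 and 404 FPKM in unstimulated Treg, with Foxp3 between 35.5 and 124 FPKM. Of these 4, 2 (Foxp3 and Il2ra) rose in stimulated and 3 (also Ctla4) in iBP-treated against unstimulated Treg by limma, as 0.968% and 1.03% of all genes tested did. The remaining marker, Ikzf2, had a difference of -0.19 ± 0.16 in stimulated against unstimulated Treg (limma, adjusted p = 0.746). B cell markers (5 of 5 tested) summed to 686 and 713 FPKM with iBP, 819 and 783 FPKM in stimulated Treg and 779 and 787 FPKM in unstimulated Treg. Erythroid markers (5 of 5 tested) summed to between 298 FPKM, in iBP replicate 2, and 758 FPKM. The general T cell markers Cd3e, Cd3g and Cd4 summed to 274 and 272 FPKM with iBP, 260 and 243 FPKM in stimulated Treg and 253 and 272 FPKM in unstimulated Treg, lowest in stimulated replicate 2. CD8 T cell markers (2 of 2 tested) summed to between 8.48 and 14.0 FPKM, and myeloid markers (2 of 5 tested) to between 72.7 and 104 FPKM, most of it Lyz2. Pancreatic acinar markers (9 of 10 tested, Prss1 being listed at 0 in every library) summed to 38.4 and 63.7 FPKM with iBP, 56.3 and 160 FPKM in stimulated Treg and 38.7 and 44.2 FPKM in unstimulated Treg, so stimulated replicate 2, where the members are lowest, was the highest. Relative to each gene's mean, the median B cell marker (0.197) and myeloid marker (0.244) also stood highest in that library. The acinar markers are 0.0423% of all FPKM in that library, while the members' share there is 7.31%. The part of other cells in the members' library pattern was not tested.

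**Figure D3:**
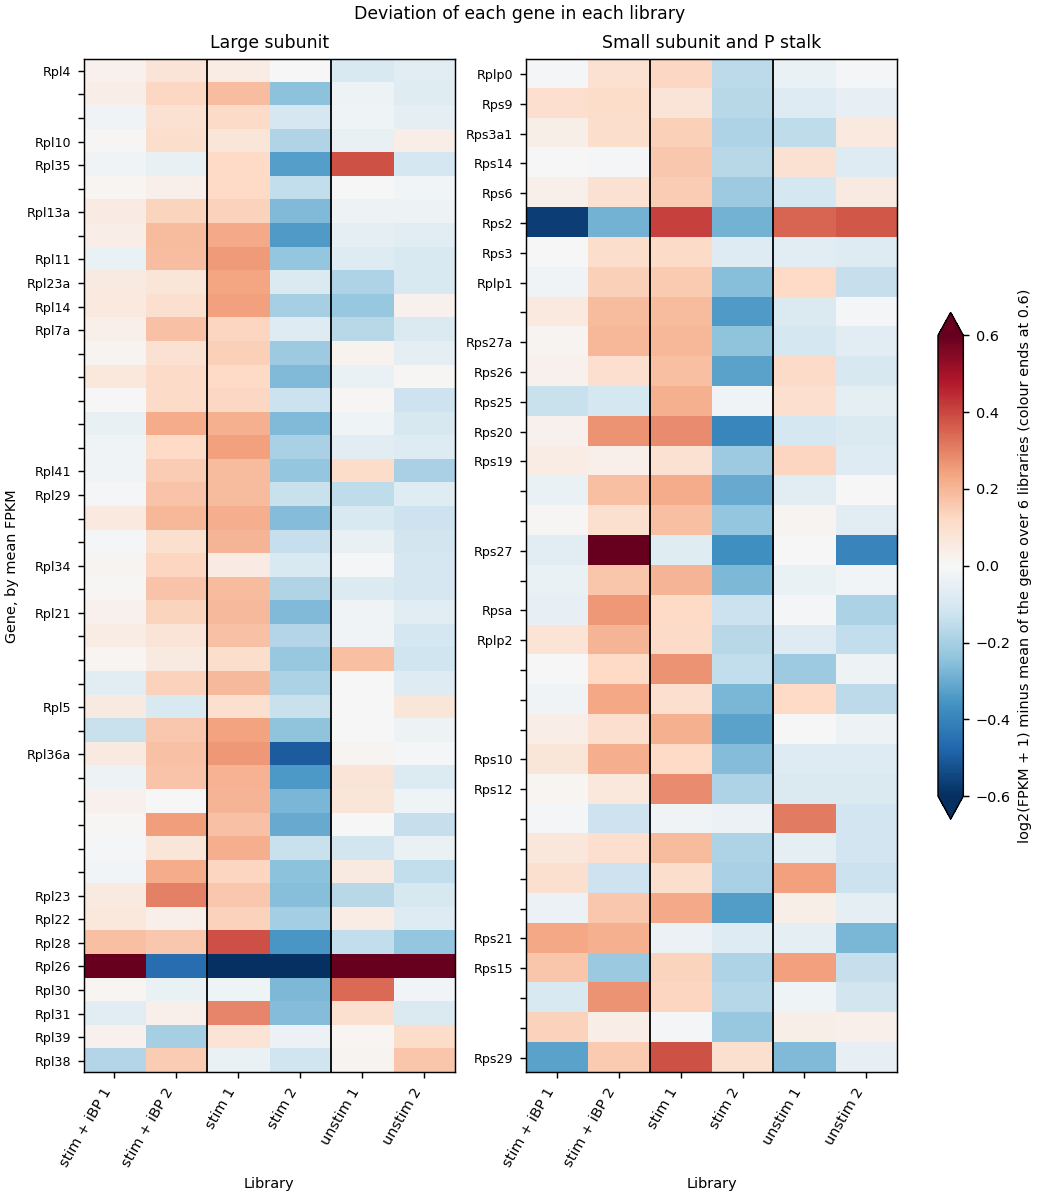
Colour gives log2(FPKM + 1) of each gene in each library minus the gene's mean over the 6 libraries, red above and blue below, with colours ending at 0.6; large-subunit genes are on the left, small-subunit and P stalk genes on the right, each by mean FPKM with names for those described, and black lines part the 3 groups. Most rows are red in stimulated replicate 1 and blue in stimulated replicate 2, and Rpl26, Rps27 and Rps2 break the pattern.

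Once each library was set to the members' own median, 66 of the 77 genes stayed within 0.25 (log2) of their mean in all 6 libraries. Only 3 went beyond 0.5 in any library: Rpl26 by 1.71, Rps27 by 0.78 and Rps2 by 0.58. Among the remaining departures, Rpl35 in unstimulated replicate 1 reached 1200 FPKM, against 908 and 894 FPKM with iBP, 1003 and 734 FPKM in stimulated Treg and 856 FPKM in the other unstimulated library.

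Stimulation was first compared with rest. Of the 77 genes, 1 fell in stimulated against unstimulated Treg and 0 rose (limma, adjusted p under 0.05 over all 10436 genes), where 0.326% of all genes tested fell and 0.968% rose, 1.29% in either direction. Rpl26 was also the only member with an unadjusted p under 0.05. The median difference was 0.02 over 43 large-subunit genes and -0.00 over 31 small-subunit genes. The median over all 77 was 0.01, beside -0.00 over all genes tested, and 42 of 77 differences lay above 0 (49.7% of all genes tested). Libraries did not overlap for 4 genes that were higher and 4 that were lower, against 18.7% and 19.1% of all genes tested. The 95% interval of a member's difference reached a median of 0.33 (log2) to either side. This interval is not adjusted for the number of genes tested, so a single gene could change by more than that without passing.

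The gene that passed was Rpl26, whose product in human cells binds the p53 mRNA and the p53 regulator MDM2 besides its place in the large subunit. It had 30.3 and 9.95 FPKM with iBP, 4.15 and 6.92 FPKM in stimulated Treg and 27.6 and 27.7 FPKM in unstimulated Treg. Both stimulated libraries lay far below both unstimulated ones, and of the iBP libraries replicate 1 was near the unstimulated level and replicate 2 near the stimulated one. The fitted difference in stimulated against unstimulated Treg was -2.16 ± 0.39 (log2, standard error; limma, adjusted p = 0.0192). Rpl26 lies on chromosome 11 (68901583 to 68906989, plus strand, GRCm38).

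The row listed for its processed pseudogene Gm15772 had the opposite pattern. That row stands directly beside Rpl26 among the listed genes, so the locus at which it was measured is uncertain. Gm15772 is annotated on chromosome 5 (3236431 to 3236868, plus strand) and differs from the 435 coding bases of Rpl26 at 2 positions, C177T and T288C, counted from the A of the start codon as 1 with the base of Rpl26 given before that of Gm15772. The stretches around them are shown because they are the only coding letters by which a read can be given to either gene, and the capital marks the differing base.
Rpl26, coding bases 157 to 197: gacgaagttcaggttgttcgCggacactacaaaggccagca
Gm15772, coding bases 157 to 197: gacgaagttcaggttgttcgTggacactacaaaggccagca
Rpl26, coding bases 268 to 308: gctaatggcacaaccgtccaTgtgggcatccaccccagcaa
Gm15772, coding bases 268 to 308: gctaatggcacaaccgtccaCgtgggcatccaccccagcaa

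The Gm15772 row held 40.0 and 65.7 FPKM with iBP, 71.4 and 56.8 FPKM in stimulated Treg and 37.1 and 33.1 FPKM in unstimulated Treg. It was high in the libraries where Rpl26 was low, and in every library its value was above that of Rpl26. Rpl26 made up 43.1% and 13.2% of the pair with iBP, 5.50% and 10.9% in stimulated Treg and 42.7% and 45.5% in unstimulated Treg. Their sum was 70.3 and 75.6 FPKM with iBP, 75.5 and 63.8 FPKM in stimulated Treg and 64.8 and 60.8 FPKM in unstimulated Treg. For the summed rows the stimulated against unstimulated difference was 0.14 ± 0.14 (limma, adjusted p = 0.798), so the call ended and the sign turned.

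The call of Rpl26 also did not hold without either unstimulated or either stimulated library, with differences between -2.47 and -1.85 and limma adjusted p between 0.061 and 0.135, or without the variance trend (limma, adjusted p = 0.218). A group left with 1 library is assumed in these fits to vary like the others. How reads that fit both genes were assigned is not given in the sources used here.

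**Figure D4:**
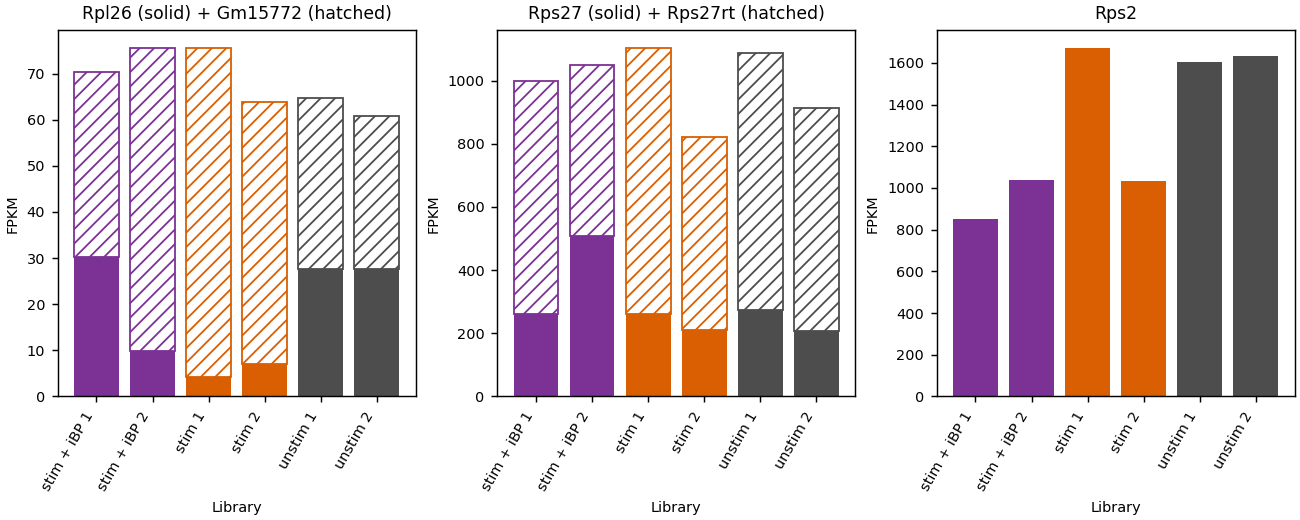
Bars give FPKM in each library for the 3 genes that depart from the other members, with the nearly identical row stacked on top as a hatched part. The solid part of Rpl26 is 4.15 and 6.92 FPKM in stimulated Treg, while the sum with Gm15772 stays between 60.8 and 75.6 FPKM; Rps27 with Rps27rt sums to between 823 and 1104 FPKM; Rps2 has no hatched part and is lowest in the iBP libraries and stimulated replicate 2.

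Besides Rpl26, large negative differences in stimulated against unstimulated Treg were -0.31 ± 0.21 for Rpl30, -0.30 ± 0.18 for Rps2, -0.24 ± 0.17 for Rpl35, -0.17 ± 0.28 for Rpl38 and -0.12 ± 0.20 for Rpl36a. Large positive differences were 0.39 ± 0.31 for Rps29, 0.21 ± 0.12 for Rpl23a, 0.21 ± 0.23 for Rpl28, 0.15 ± 0.11 for Rpl7a, 0.14 ± 0.13 for Rpl29, 0.14 ± 0.15 for Rps12 and 0.13 ± 0.15 for Rpl14. None of these 12 passed the test. For Rpl23a, an early docking site for factors at the exit of the ribosome's tunnel, the values were 475 and 481 FPKM with iBP, 537 and 430 FPKM in stimulated Treg and 401 and 428 FPKM in unstimulated Treg. Its stimulated libraries lay above its unstimulated ones, by a narrow margin at the nearest pair.

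Stimulation with iBP was then compared with stimulation alone. Of the 77 genes, 0 changed (limma, adjusted p under 0.05), where 0.00958% of all genes tested did, 1 gene in all. At an unadjusted p under 0.05, 3 members differed by limma: Rpl26 at 1.54 ± 0.39 (adjusted p = 0.957), Rps27 at 0.64 ± 0.25 and Rps2 at -0.48 ± 0.18 (adjusted p = 0.998 for both). The members' median was 0.09, beside -0.03 over all genes tested, and 64 of 77 differences lay above 0, against 44.2% of all genes. Libraries did not overlap for 5 genes higher and 1 lower with iBP, against 13.6% and 21.0% of all genes tested. The median turned to -0.10 without stimulated replicate 2 and was 0.27 without stimulated replicate 1.

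Rps27, a small-subunit zinc-finger protein, had 261 and 509 FPKM with iBP, 260 and 211 FPKM in stimulated Treg and 273 and 207 FPKM in unstimulated Treg. A single library, iBP replicate 2, stood out, and the other 5 lay between 207 and 273 FPKM. Rps27 lies on chromosome 3 (90212522 to 90213651, minus strand), and its copy Rps27rt, annotated as protein-coding on chromosome 9 (114982366 to 114982739, minus strand), has the same 252 coding bases without a difference. The start of the coding sequence is shown for both to make the identity plain, with no capitals.
Rps27, coding bases 1 to 60: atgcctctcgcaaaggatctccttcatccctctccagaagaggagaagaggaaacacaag
Rps27rt, coding bases 1 to 60: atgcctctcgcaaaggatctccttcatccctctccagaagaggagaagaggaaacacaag

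Rps27rt held 739 and 541 FPKM with iBP, 845 and 612 FPKM in stimulated Treg and 815 and 708 FPKM in unstimulated Treg. It was lowest in iBP replicate 2, where Rps27 was highest. The sum of both rows was 1000 and 1049 FPKM with iBP, 1104 and 823 FPKM in stimulated Treg and 1088 and 915 FPKM in unstimulated Treg, and the groups overlapped. For the sum the difference was 0.10 ± 0.14 in iBP against stimulated Treg (limma, adjusted p = 0.998) and 0.04 ± 0.14 in iBP against unstimulated Treg (limma, adjusted p = 0.957).

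Rpl34 also has a relative of measurable level. Its pseudogene Rpl34-ps1, on chromosome 6, differs at 2 of 351 coding bases (T132C and C318G). Rpl34-ps1 had 19.8 and 16.7 FPKM with iBP, 57.4 and 10.6 FPKM in stimulated Treg and 72.5 and 42.4 FPKM in unstimulated Treg. Rpl34 itself was even, with 238 and 257 FPKM with iBP, 244 and 221 FPKM in stimulated Treg and 233 and 219 FPKM in unstimulated Treg. Of neighbouring listed genes, 98.9% lie on the same chromosome. Yet Gm15772, Rps27rt, Rpl34-ps1 and Gm12191, the pseudogene of Rpl30, each stand directly beside their member. GENCODE places them on another chromosome. At which locus the authors measured these rows, those of Rpl26 and Rps27 above included, is not given in the sources used here.

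Other members with negative differences in iBP against stimulated Treg were Rps29 at -0.32 ± 0.31, Rps25 at -0.22 ± 0.12, Rpl39 at -0.11 ± 0.25, Rpl31 at -0.04 ± 0.23, Rps12 at -0.01 ± 0.15 and Rpl23a at -0.01 ± 0.12. Rps25 had 363 and 370 FPKM with iBP, 462 and 392 FPKM in stimulated Treg and 427 and 382 FPKM in unstimulated Treg, so its iBP libraries were the lowest of the 6. Positive differences after those of Rpl26 and Rps27 were 0.28 ± 0.18 for Rps21, 0.23 ± 0.20 for Rpl36a, 0.23 ± 0.18 for Rpl23, 0.22 ± 0.15 for Rps10 and 0.20 ± 0.18 for Rps20. Rps21 had 21.2 and 20.9 FPKM with iBP, 17.4 and 16.9 FPKM in stimulated Treg and 17.2 and 14.6 FPKM in unstimulated Treg, its iBP libraries being the highest. None of these 11 passed the test.

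The comparison of stimulation with iBP against rest shares its libraries with both comparisons above and adds no independent samples. Of the 77 genes, 0 changed (limma, adjusted p under 0.05), where 1.75% of all genes tested did (1.03% higher and 0.728% lower with iBP), and 2 members, Rps2 and Rps27, had an unadjusted p under 0.05. The members' median was 0.11, beside -0.03 over all genes tested, and 63 of 77 differences lay above 0, against 45.6% of all genes. The iBP libraries lay above the unstimulated ones without overlap for 37 genes and below for 2, against 18.1% and 23.9% of all genes tested. Since the members moved together between libraries, these 37 are not separate observations.

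Rps2, a small-subunit protein at the entry of the mRNA channel, came closest to passing. It had 851 and 1036 FPKM with iBP, 1672 and 1034 FPKM in stimulated Treg and 1605 and 1632 FPKM in unstimulated Treg. The iBP libraries lay well below the unstimulated ones, and the stimulated libraries split, replicate 1 at the unstimulated level and replicate 2 at the level with iBP. The difference in iBP against unstimulated Treg was -0.78 ± 0.18 (log2, 95% interval -1.18 to -0.39; limma, adjusted p = 0.0568). It passed when only genes with an FPKM of at least 5 were tested (adjusted p = 0.0307), when only these 2 groups entered the limma fit (adjusted p = 0.00455) and without either stimulated library (0.00364 and 0.00407). In stimulated against unstimulated Treg, Rps2 differed by -0.65 without stimulated replicate 1 (limma, adjusted p = 0.0482) and by 0.047 without stimulated replicate 2. In both cases 1 stimulated library remained, which the fit assumes to vary like the other groups.

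Rps2 lies on chromosome 17 (24718116 to 24721929, plus strand) and hosts the small nucleolar RNA Snora64. GENCODE lists 22 loci nearly identical to its coding sequence, of which 0 have a row among the listed genes, so no sum could be formed. The Snora64 row had 6.80 and 5.74 FPKM with iBP, 9.02 and 5.47 FPKM in stimulated Treg and 8.43 and 7.65 FPKM in unstimulated Treg. Its iBP libraries also lay below the unstimulated ones and stimulated replicate 1 was again its highest library. Snhg9, a gene within the annotated span of Rps2 on the other strand, stayed at or under 1.71 FPKM in every library.

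The other members with the largest differences in iBP against unstimulated Treg were Rpl26 at -0.63 ± 0.39, Rpl30 at -0.18 ± 0.21 and Rpl35 at -0.17 ± 0.17 on the lower side. On the higher side they were Rps27 at 0.61 ± 0.25, Rps21 at 0.39 ± 0.18, Rpl28 at 0.36 ± 0.23 and Rpl23 at 0.31 ± 0.18. None passed. Rpl23, whose product can bind MDM2 in human cells, had 38.4 and 45.7 FPKM with iBP, 41.4 and 30.8 FPKM in stimulated Treg and 32.8 and 34.4 FPKM in unstimulated Treg.

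**Figure D5:**
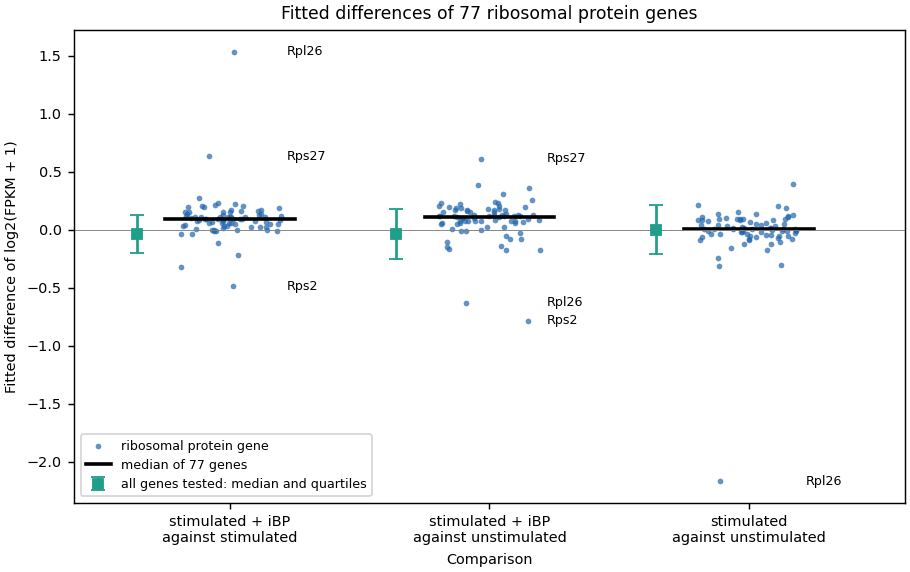
Each point is the fitted difference of log2(FPKM + 1) of 1 of the 77 genes in a comparison, the black bar their median, and the square with whiskers the median and quartiles of all genes tested. Rpl26, Rps27 and Rps2 stand apart from the other members, and the medians are 0.09 in iBP against stimulated, 0.11 in iBP against unstimulated and 0.01 in stimulated against unstimulated Treg.

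Of 18 members with known tasks outside the ribosome or in signalling, Rpl26 alone passed a test in any comparison, against 1.29%, 0.00958% and 1.75% of all genes tested for stimulated against unstimulated, iBP against stimulated and iBP against unstimulated Treg. That call ended when Gm15772 was summed with it. Rpl5 and Rpl11 join 5S rRNA in the complex that restrains Mdm2 and so stabilises p53. Rpl5 had 131 and 118 FPKM with iBP, 135 and 115 FPKM in stimulated Treg and 126 and 133 FPKM in unstimulated Treg. Rpl11 had 460 and 538 FPKM with iBP, 564 and 402 FPKM in stimulated Treg and 448 and 443 FPKM in unstimulated Treg. In Rpl5 all groups overlapped. In Rpl11 the iBP libraries lay above the unstimulated ones, and the stimulated libraries spanned both.

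Rps6, the ribosomal protein phosphorylated by S6 kinase when mTOR is active, had 1385 and 1444 FPKM with iBP, 1506 and 1165 FPKM in stimulated Treg and 1262 and 1410 FPKM in unstimulated Treg. Rpl22, which mouse alpha-beta T cells need for their development, had 27.1 and 26.4 FPKM with iBP, 28.5 and 22.3 FPKM in stimulated Treg and 26.7 and 24.4 FPKM in unstimulated Treg. Its paralogue Rpl22l1 had 208 and 182 FPKM with iBP, 218 and 147 FPKM in stimulated Treg and 182 and 172 FPKM in unstimulated Treg, well above Rpl22 on the FPKM scale. Rps3, also known in human cells for DNA repair and as a partner of NF-kappa-B, had 922 and 990 FPKM with iBP, 996 and 874 FPKM in stimulated Treg and 880 and 872 FPKM in unstimulated Treg. All 4 genes had their highest value in stimulated replicate 1.

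Rpl13a, part of an interferon-responsive translation silencer in human cells, ran between 424 FPKM in stimulated replicate 2 and 561 FPKM in stimulated replicate 1. Rpl10, an X-linked late-joining protein, ran between 865 and 1053 FPKM. Rps27a, whose product is made as a fusion with ubiquitin, ran between 348 and 473 FPKM. Rpsa, also known as a laminin receptor, had 234 and 290 FPKM with iBP, 263 and 221 FPKM in stimulated Treg and 240 and 212 FPKM in unstimulated Treg. The small-subunit genes mutated in Diamond-Blackfan anaemia in humans, Rps19 and Rps26, also overlapped between all groups. Rps19 ran between 305 and 389 FPKM, and Rps26 between 329 and 465 FPKM. Rps14 ran between 1260 and 1585 FPKM, and Rps15 between 13.1 and 18.6 FPKM.

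The P stalk, which recruits the elongation factors, was measured at 3 levels. Rplp1 had 564 and 633 FPKM with iBP, 639 and 480 FPKM in stimulated Treg and 623 and 521 FPKM in unstimulated Treg. Rplp2 had 198 and 215 FPKM with iBP, 203 and 167 FPKM in stimulated Treg and 177 and 169 FPKM in unstimulated Treg. In Rplp1 all groups overlapped. In Rplp2 the iBP libraries lay above the unstimulated ones, and the difference of 0.25 ± 0.13 did not pass (limma, adjusted p = 0.455).

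Of 33 small nucleolar RNA genes inside members that have a row of their own, 3 were picked for description after their values were seen. No test result is given for them. Snord16a, inside Rpl4, had 55.4 and 68.5 FPKM with iBP, 54.7 and 55.4 FPKM in stimulated Treg and 27.0 and 35.6 FPKM in unstimulated Treg, while Rpl4 itself varied between 2942 and 3301 FPKM. Snord42a, inside Rpl23a, had 14.5 and 13.3 FPKM with iBP, 5.48 and 5.46 FPKM in stimulated Treg and 7.01 and 8.88 FPKM in unstimulated Treg. Snora21, inside Rpl23, had 8.36 and 10.1 FPKM with iBP, 5.37 and 1.40 FPKM in stimulated Treg and 1.35 and 1.62 FPKM in unstimulated Treg. Small nucleolar RNAs mostly lack a poly(A) tail, and the libraries were primed with oligo-dT, and the source of the reads in these rows was not tested.

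Of 20 tested genes that control ribosomal protein synthesis, 1 rose in stimulated against unstimulated Treg and 0 fell, with a median difference of 0.09, where 0.968% of all genes tested rose and 0.326% fell. It was Myc, which had 437 and 423 FPKM with iBP, 389 and 459 FPKM in stimulated Treg and 206 and 231 FPKM in unstimulated Treg. Its difference was 0.95 ± 0.12 in stimulated against unstimulated Treg (limma, adjusted p = 0.0017) and 0.97 ± 0.12 in iBP against unstimulated Treg (limma, adjusted p = 0.0015). Larp1, the repressor that binds TOP mRNAs, had 22.4 and 19.6 FPKM with iBP, 17.1 and 23.2 FPKM in stimulated Treg and 15.9 and 11.2 FPKM in unstimulated Treg, and its difference of 0.55 ± 0.22 did not pass (limma, adjusted p = 0.385). Larp4 likewise had a difference of 0.56 ± 0.22 without passing (limma, adjusted p = 0.366). Differences of similar size ran the other way without passing, with -0.82 ± 0.34 for Eif4ebp2, which encodes a translation repressor that mTOR phosphorylates (limma, adjusted p = 0.396), -0.69 ± 0.33 for Rptor, the mTOR partner (limma, adjusted p = 0.482), and -0.44 ± 0.18 for Max, the dimer partner of Myc (limma, adjusted p = 0.376).

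In 5 further lists, given below, 0 genes passed in any of the 3 comparisons by limma. Between 0 and 3 genes per list and comparison had an unadjusted p under 0.05. Among 20 further genes with a TOP tract the median was 0.03 in stimulated against unstimulated Treg, -0.00 in iBP against stimulated Treg and 0.06 in iBP against unstimulated Treg. Among 9 ribosomal protein genes outside the name rule it was 0.01, -0.09 and -0.02, and among 10 carriers and chaperones of ribosomal proteins 0.18, -0.09 and 0.09, in the same order. For 8 genes of the 5S complex and p53 it was 0.03, -0.11 and 0.02, in the same order. Of these, Rrs1, an assembly factor of the 5S complex, had 31.8 and 33.3 FPKM with iBP, 46.5 and 51.7 FPKM in stimulated Treg and 31.6 and 34.5 FPKM in unstimulated Treg, so both stimulated libraries were above the other 4. Its differences were -0.58 ± 0.15 in iBP against stimulated Treg (limma, adjusted p = 0.959) and 0.56 ± 0.15 in stimulated against unstimulated Treg (limma, adjusted p = 0.121), and neither passed. Among 76 mitochondrial ribosomal protein genes the median was -0.05, -0.09 and -0.15.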

How the data were processed

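The data are 6 SMART-seq libraries of wild-type Treg, 2 per group, named by group and replicate from the labels. The authors deposited FPKM values per gene in a single table; their summed FPKM per library lay between 366044 and 381302, with 12596 to 13592 genes above 0. Per the labels' protocols, 100000 cells were lysed, reverse transcription of 40 ng RNA used an oligo-dT primer, and PCR amplified the cDNA. The submitters' processing notes name HISAT2 2.2.1, StringTie 2.1.1 and mm10. For annotation, strand and multi-mapped reads the setting is not given in the sources used here. Low FPKM values showed no whole-read steps, so read depth is unknown and no counting error could be attached.

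Values were analysed as log2(FPKM + 1), a scale that understates changes of low genes. All 3 groups entered 1 limma 3.58.1 model (R 4.3.3) over the 10436 genes that had FPKM 1 or more in 2 or more libraries. Variances were moderated along a trend of variance on mean (residual degrees of freedom 3, prior 8.52). The p-values are two-sided and were adjusted by Benjamini-Hochberg over these genes, with a threshold of 0.05. Errors of differences are standard errors. Nearly identical loci were found with BLAST 2.17.0 of GENCODE M21 coding sequences against its transcripts, at 95% identity over 90% of the length. Coordinates are GENCODE M21 (GRCm38), matched by symbol, and start regions are from RefSeq (GRCm38.p6). Plots used matplotlib 3.10.9 under Python 3.11.15. The fit was checked on simulated data.

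The members, the gene lists and the rule for named genes were chosen with earlier results of these data known. The rule takes members that pass, the 8 largest differences each way for stimulated against unstimulated and for iBP against stimulated, the 4 each way for iBP against unstimulated, the 5 highest and 5 lowest in level, and 18 genes with known roles elsewhere; some of the genes it takes are not reported here. Alternatives were another pseudocount, other filters and scalings, other variance models, a replicate block, fits of 2 groups, and leaving out each library. Summing nearly identical rows and scaling to the members' median were added after seeing the data.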

Additional observations from a re-analysis of the deposited data

How the results depend on the processing

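The number of ribosomal protein genes that passed depended on the setting, while the median difference depended on the stimulated libraries. For stimulated against unstimulated Treg, 0 passed with no filter, with no variance trend, with robust moderation, with the replicate block and with nearly identical rows summed, and 0 to 1 when a library was left out. For iBP against stimulated Treg it was 0 to 1, the 1 being Rpl26 without iBP replicate 2 (2.29, limma adjusted p = 0.0309). For iBP against unstimulated Treg it was 1, Rps2, with a minimum FPKM of 5, with only the 2 groups compared and with scaling to the members' median (-0.90, limma adjusted p = 0.00442). Leaving out a library gave 0 to 1, the 1 without iBP replicate 1 being Rps27 (1.09, limma adjusted p = 0.0263). Each of these 2 calls rests on a single iBP library, whose spread the fit takes from the other groups. The median member difference with a library left out ran from -0.18 to 0.20 in stimulated against unstimulated Treg and from -0.10 to 0.27 in iBP against stimulated Treg. The cause was not tested.

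The labels do not state whether equal replicate numbers share a mouse or culture. The replicate gaps of 2 groups correlated across genes at -0.012, -0.018 and -0.046. These values cannot settle whether libraries were paired, since a shared source may shift few genes. With the replicate block, calls over all genes were 79 in place of 135 for stimulated against unstimulated Treg and 109 in place of 183 for iBP against unstimulated Treg, and Rpl26 had a limma adjusted p of 0.0585. Over all genes, stimulated against unstimulated calls were 12 with no filter and 12 with no trend. Scaling to the members' median shifted the median of all genes by more than 0.1 in iBP against stimulated Treg, to -0.12 in place of -0.03. The members' share was 6.02%, 5.65% and 5.62% with iBP, in stimulated and in unstimulated Treg without the 5 highest genes. For unstimulated Treg it was 8.22% over tested genes and 8.43% with nearly identical rows.

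Of 628 repeats of 35 named member differences, 584 kept direction and call, 28 changed sign, 8 lost and 8 gained the call. With nearly identical rows summed, Rpl26 turned to 0.14 for stimulated and 0.21 for iBP Treg, both against unstimulated Treg. In iBP against stimulated Treg, Rpl31, Rps12 and Rpl23a turned to 0.0044, 0.029 and 0.033 under TPM and to 0.0040, 0.030 and 0.034 under median-of-ratios scaling, and Rps12 and Rpl23a to 0.054 and 0.037 under quantile normalization. With a library left out, the sign of these differences changed within their ranges. For stimulated against unstimulated Treg the ranges were -0.10 to 0.35 for Rpl14, -0.16 to 0.57 for Rpl28, -0.020 to 0.30 for Rpl29, -0.48 to 0.0028 for Rpl35, -0.50 to 0.26 for Rpl36a, -0.095 to 0.37 for Rps12 and -0.65 to 0.047 for Rps2. For iBP against stimulated Treg they were -0.17 to 0.15 for Rpl23a, -0.31 to 0.24 for Rpl31, -0.15 to 0.61 for Rpl36a, -0.22 to 0.0017 for Rpl39, -0.25 to 0.22 for Rps12 and -0.14 to 0.54 for Rps20. For iBP against unstimulated Treg they were -1.39 to 0.13 for Rpl26, -0.35 to 0.0011 for Rpl30 and -0.41 to 0.074 for Rpl35.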
